A study of Homo sapiens with 3 samples.

Results

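Heparan sulfate proteoglycan genes were followed in the osimertinib-sensitive lung cancer line H1975 and in the resistant lines OR1 and OR2. The set held 10 of the 43316 genes on the array, namely the core proteins SDC1, SDC2, GPC1 and GPC3, the chain polymerase EXT1, and the modifying enzymes NDST1, HS2ST1, HS6ST1, HS6ST2 and HS3ST1. Members were found by their gene name in the scanner files, control spots excluded, and all of their 13 probes of 58200 were used. The set was proposed with results of these arrays known, among them the opposite ratios of HS6ST2 in OR1 and OR2. The values are therefore given as a description with no test. Among the members only HS6ST2 lay past the ratios of 2 and 0.5 in opposite directions, while SDC1 and NDST1 were low in both resistant lines, HS2ST1 was modestly higher, and SDC2 was not detected.

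H1975 (NCI-H1975) is an established non-small cell lung cancer line with mutant EGFR that is sensitive to osimertinib, an EGFR inhibitor. OR1 and OR2 were selected from it with osimertinib raised in steps to 2 μmol/L during 4 months, and the methods describe them as independently established clones. All 3 lines were grown in RPMI medium with fetal bovine serum. Total RNA of each line was labeled with Cy3 and hybridized to 1 Agilent array, and the 3 arrays were on the same slide.

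Heparan sulfate is a long sugar chain attached to core proteins at the cell surface and in the matrix. The chain is started on a linker sugar, lengthened by the EXT enzymes, and then modified in the Golgi, where N-sulfation by NDST enzymes precedes epimerization and the O-sulfation steps. The resulting sulfate pattern lets the chain bind growth factors, among them fibroblast growth factors and HGF, and in epithelial cells syndecan-1 is the main transmembrane carrier.

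The lines were compared by scaled level, the intensity of a probe divided by the intensity at the 75th percentile of its array, which was 157, 138 and 162 in H1975, OR1 and OR2. On each array 45.6% to 45.9% of the probes were well above background by the scanner software's criterion, called detected here, and 18591 genes were so on all 3 arrays. No spot was saturated, and no spot of a member was marked as an outlier. The ratio of a line to H1975 is the quotient of the scaled levels, and a gene was counted as up-regulated at a ratio of at least 2 and as down-regulated at 0.5 or below, the ratios of the methods. The technical standard deviation (SD), taken from the error the scanner software estimates for each spot, had a median of 0.20 on the log2 scale over the member ratios. It covers the measurement of 1 RNA sample and not the spread between cultures. It was nearly constant over bright members, at 0.204 for SDC1, NDST1 and EXT1 in both lines, so it says little about single probes. Among probes spotted many times, the median SD between spots of 1 array was 0.054, 0.052 and 0.054 in H1975, OR1 and OR2. That SD is of log2 intensities and not of ratios. Each line had 1 array, so there was no replicate and no p-value, and both resistant lines were set against the same H1975 array.

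The labelled cell type was checked against marker genes. All 6 epithelial markers were well above background in all 3 lines, but EPCAM, CDH1 and KRT7 were far lower in the resistant lines, with ratios of 0.0370, 0.0205 and 0.164 in OR1 and 0.0725, 0.0800 and 0.170 in OR2. KRT19, at 0.463 and 0.492, was the other of the 4 that were down-regulated in both lines, while KRT18 had ratios of 0.884 and 0.806 and KRT8 1.12 and 0.964. The summed scaled level of the list was 2480, 1071 and 1064 in H1975, OR1 and OR2. Among lung epithelial markers, NKX2-1, NAPSA and SFTPC were detected and SFTPB, SFTA2 and SLC34A2 were not. NKX2-1 had ratios of 0.252 and 1.36 in OR1 and OR2, and NAPSA 0.770 and 1.57. SFTPC was higher in both lines, at 3.78 and 4.87, from a low scaled level of 0.153 in H1975. Fibroblast markers had a summed level of 4.27, 4.96 and 0.65 in H1975, OR1 and OR2, and COL3A1, DCN and PDGFRA were not detected in any line. Of those detected, COL1A1 was at 1.45 and 0.183, COL1A2 at 0.162 and at most 0.0615, and LUM, detected in OR1 alone, at a ratio of at least 5.43 there. CD3E of the leukocyte list and KDR of the endothelial list were not detected, while CD14 had a ratio of 4.25 and 6.56 in OR1 and OR2. The part of the epithelial difference in the results for the heparan sulfate genes was not tested.

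HS6ST2, which encodes a sulfotransferase that adds sulfate to the 6-O position of glucosamine in the chain, was the member that differed most between the resistant lines. It was measured by 2 probes on the minus strand of the X chromosome, chrX:131760088-131760147 and chrX:131762253-131762312 of hg19, both assigned by the files to NM_001077188. The second probe is shown because it carries the weaker of both HS6ST2 measurements and its letters hold a single forward frame free of stop codons. In its sequence, 5′ to 3′, the 19 codons of that frame are in capitals.
HS6ST2 probe: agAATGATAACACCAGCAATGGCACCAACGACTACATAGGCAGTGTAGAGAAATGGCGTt
An open frame in a probe is a description of these letters. Which exon or untranslated part the probes lie in is not stated here, as no annotation of hg19 was used.

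Promoter sequence is shown for HS6ST2, the member with opposite ratios, and for SDC1 and NDST1, the members down-regulated in both lines, so that they can be set beside each other. The 250 bases before the start of each gene are from RefSeq on GRCh38.p14, and 7 of the 10 members had an entry. The strand is minus for HS6ST2 (chrX:132961371-132961620) and SDC1 (chr2:20225476-20225725) and plus for NDST1 (chr5:150497529-150497778). Capitals mark the GC box GGGCGG and the E-box CACCTG on either strand.
HS6ST2 promoter: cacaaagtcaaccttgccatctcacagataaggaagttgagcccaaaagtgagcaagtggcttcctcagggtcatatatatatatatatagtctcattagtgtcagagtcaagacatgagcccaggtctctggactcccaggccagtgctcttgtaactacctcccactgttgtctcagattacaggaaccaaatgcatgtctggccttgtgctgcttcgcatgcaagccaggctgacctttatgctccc
SDC1 promoter: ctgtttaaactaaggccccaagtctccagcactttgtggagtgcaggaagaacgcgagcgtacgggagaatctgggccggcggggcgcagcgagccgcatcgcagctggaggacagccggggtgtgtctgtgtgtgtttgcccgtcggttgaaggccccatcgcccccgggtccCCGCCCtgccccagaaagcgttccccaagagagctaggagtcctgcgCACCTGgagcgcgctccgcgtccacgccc
NDST1 promoter: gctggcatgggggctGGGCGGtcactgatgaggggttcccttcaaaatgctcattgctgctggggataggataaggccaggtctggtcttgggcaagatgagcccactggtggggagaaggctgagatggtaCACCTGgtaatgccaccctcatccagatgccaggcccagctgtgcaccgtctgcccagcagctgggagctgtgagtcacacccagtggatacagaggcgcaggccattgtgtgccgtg
The motifs, TATAAA included, were searched on both strands, and no match overlaps another in the windows shown. Of all 35116 promoters of the table, 42.6% held GGGCGG, 17.5% held CACCTG and 10.7% held TATAAA. The windows of SDC1 and NDST1 each held 1 GC box and 1 CACCTG, and a second SDC1 entry held the GC box only. The HS6ST2 window held none of the motifs and had a GC content of 48.0%, where the median promoter had 58.0%. By contrast, the HS6ST1 window had a GC content of 80.4% and 7 GC boxes. HS2ST1 and GPC1 had 4 GC boxes each and HS3ST1 had 1, and TATAAA was in no member's window. A match is a description of letters, and its absence says only that the letters are not in the window.

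The brighter HS6ST2 probe had an intensity of 390.7, 97.5 and 889.3 in H1975, OR1 and OR2, and a scaled level of 2.48, 0.707 and 5.50. OR1 was thus the low line and OR2 the high one, with H1975 between them. The ratio to H1975 was 0.285 in OR1 (technical SD 0.21 on the log2 scale) and 2.22 in OR2 (technical SD 0.20), and OR2 exceeded OR1 7.78-fold. In log2 units these ratios were -1.81 in OR1, 1.15 in OR2 and 2.96 between the resistant lines. In these bulk samples, fewer cells that express a gene and less RNA per cell cannot be told apart.

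The dimmer HS6ST2 probe put the lines in the same order, with a scaled level of 0.317, 0.122 and 0.572 in H1975, OR1 and OR2. Its ratio was 0.386 and 1.80 in OR1 and OR2, and OR2 was 4.67-fold above OR1. It therefore passed 0.5 in OR1 but not 2 in OR2, and its technical error was larger, at log2 SDs of 0.33 and 0.23. With another background correction (normexp) the brighter probe gave 0.371 and 2.05, and the dimmer one 0.786 and 1.38, so the dimmer probe then passed neither ratio. The median over both probes gave 0.331 and 2.00, the latter just under the ratio of 2.

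Among the 18591 genes detected in all lines, 6, HS6ST2 included, had a ratio of OR2 to OR1 as high as that of HS6ST2 or higher. Against H1975, 2.33% of these genes were as low as HS6ST2 or lower in OR1, and 5.01% were as high or higher in OR2. Opposite passage of the ratios was seen in 5 of 21140 genes (0.0237%), and HS6ST2, 1 of the 9 members with a ratio, was chosen with this known. Each single ratio of HS6ST2 had many genes beyond it, whereas few had so large a difference between OR1 and OR2.

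**Figure D1:**
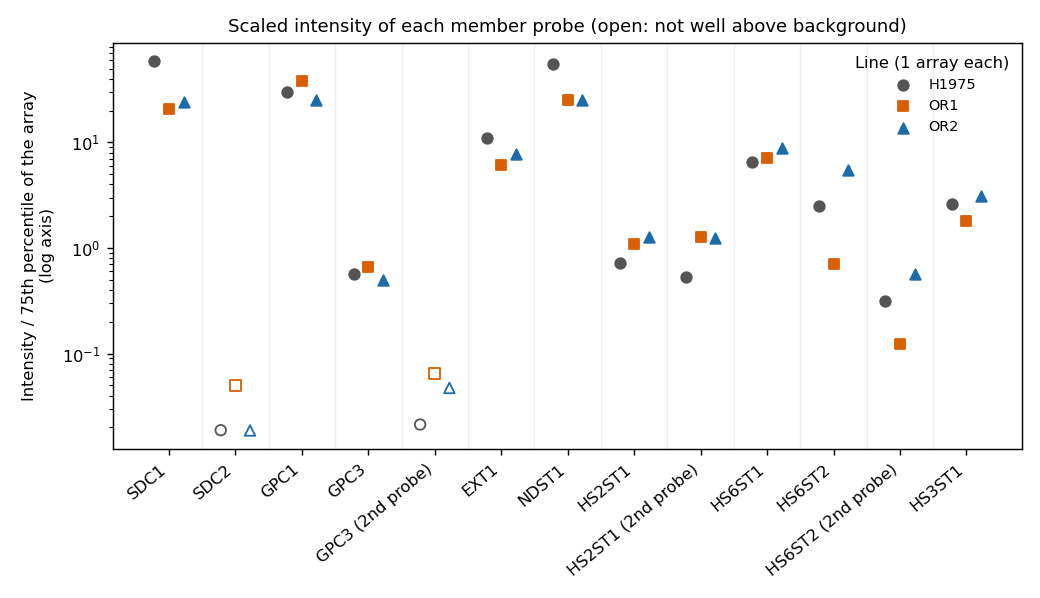
Scaled level of each member probe (intensity divided by the intensity at the 75th percentile of its array, log axis) in H1975, OR1 and OR2, with 1 symbol per array and open symbols where the probe was not well above background. HS6ST2 lies below H1975 in OR1 (0.707) and above it in OR2 (5.50) with both probes in the same order, and SDC1 and NDST1 lie below H1975 in both lines.

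The 5 genes most like HS6ST2, by the distance of both log2 ratios to those of HS6ST2 over 18590 other genes, were PLEKHS1, MAGEB2, SLC2A5, NKX2-1 and DDX60. PLEKHS1 was nearest at a log2 distance of 0.46, with a ratio of 0.350 and 2.82 in OR1 and OR2, and DDX60 was the farthest of the 5 at 0.76. NKX2-1, which encodes a transcription factor of lung epithelium, had a scaled level of 5.29, 1.33 and 7.22 in H1975, OR1 and OR2, a ratio of 0.252 and 1.36. SLC2A5, a fructose transporter gene, had ratios of 0.410 and 1.75, and MAGEB2, a MAGE family gene on the X chromosome, 0.411 and 1.91. With normexp PLEKHS1 was at 0.689 and 1.94 and MAGEB2 at 0.749 and 1.45, past neither ratio, and the median over probes put SLC2A5 at 0.584 and 1.19. Likeness here rests on 3 arrays and says that the levels had a like order, low in OR1 and high in OR2.

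HS6ST1, the paralog of HS6ST2 with the same 6-O-sulfating activity, did not share this order. Its probe (NM_004807, chr2:129023059-129023118 of hg19, minus strand) had a scaled level of 6.46, 7.08 and 8.92 in H1975, OR1 and OR2. The ratio was 1.10 and 1.38 in OR1 and OR2, neither past 2, and the OR1 ratio turned to 0.961 without scaling between arrays and to 0.726 with scaling on the spike-in probes. HS6ST3, the remaining gene of the family, was detected on no array.

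NDST1 encodes the bifunctional enzyme that removes acetyl groups from glucosamine and replaces them with sulfate, the step on which later sulfation depends. Its promoter window is shown above. Its probe (NM_001543, chr5:149937714-149937773, plus strand) had an intensity of 8639.2, 3496.9 and 4086.0 in H1975, OR1 and OR2, and a scaled level of 54.9, 25.3 and 25.3. Both resistant lines were low and were nearly equal to each other. The ratio was 0.462 and 0.460 in OR1 and OR2 (technical SD 0.20 on the log2 scale), and OR2 to OR1 was 0.997. In OR2 it lay just past 0.5, and quantile normalization or the authors' normalized values gave 0.511 there. NDST2, which encodes an enzyme of the same kind, had a ratio of 1.90 and 1.43 in OR1 and OR2, and NDST3 and NDST4 were not detected.

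HS2ST1 encodes the enzyme that sulfates the 2-O position of the uronic acid. Of its 2 probes on the plus strand of chromosome 1, the brighter (NM_012262, chr1:87575369-87575428) had a scaled level of 0.713, 1.09 and 1.28 in H1975, OR1 and OR2, a ratio of 1.53 and 1.80. The other probe (NM_001134492, chr1:87564043-87564102) had a scaled level of 0.530, 1.26 and 1.25, a ratio of 2.37 and 2.36. The probes carry different transcript accessions and disagree over the ratio of 2, though both put H1975 lowest. Scaling on the spike-in probes left the brighter probe at 1.01 in OR1, and with normexp the ratios of the other probe were 1.75 and 1.73.

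HS3ST1 encodes the 3-O-sulfotransferase known for making the antithrombin-binding site of heparin-like chains. Its probe (NM_005114, chr4:11400670-11400729, minus strand) had a scaled level of 2.63, 1.80 and 3.07 in H1975, OR1 and OR2. The order was that of HS6ST2, OR1 lowest and OR2 highest, at smaller ratios of 0.683 and 1.17 in OR1 and OR2. The ratio of OR2 to OR1 was 1.71. In log2 units the OR2 ratio to H1975 was 0.22, close to its technical SD of 0.20. With spike-in scaling the OR1 ratio of HS3ST1 was 0.452, past 0.5. Of the paralogs, HS3ST3B1 had a ratio of 2.60 and 1.54 in OR1 and OR2 by its brighter probe. Its OR1 ratio was 1.47 with normexp and 1.72 with spike-in scaling, under 2 both times. That probe was dim in H1975, at an intensity of 21.3, and the other HS3ST3B1 probe was detected on no array. HS3ST2, HS3ST3A1, HS3ST4, HS3ST5 and HS3ST6 were not detected in any line. Of the genes for 6-O- and 3-O-sulfation, HS6ST1, HS6ST2, HS3ST1 and HS3ST3B1 were thus those detected. Over all genes, 20898 of 43316 were detected on no array.

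EXT1 encodes a subunit of the polymerase that lengthens the chain. Its probe (NM_000127, minus strand of chromosome 8, within chr8:118817116-118819498 and spanning a gap in the genome) had a scaled level of 11.0, 6.12 and 7.77 in H1975, OR1 and OR2. It was lower in both resistant lines without passing the ratio, at 0.558 and 0.707 (technical SD 0.20 on the log2 scale), and passed it in OR1 without scaling (0.489) and with spike-in scaling (0.369). EXT2, the partner subunit, had ratios of 1.56 and 1.49. EXTL2 was up-regulated at 2.16 and 2.54, EXTL3 had 1.20 and 0.916, and EXTL1 was not detected. Within the polymerization genes the ratios of EXT1 and EXT2 thus lay on opposite sides of 1 in both lines.

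Of the core proteins in the set, SDC1 differed most from H1975. SDC1 encodes syndecan-1, and its promoter window, like that of NDST1, is shown above. Its probe (NM_001006946, chr2:20401335-20401394, minus strand) had an intensity of 9248.0, 2880.3 and 3892.2 in H1975, OR1 and OR2, and a scaled level of 58.7, 20.9 and 24.1. Both resistant lines were low, and they differed little from each other. The ratio was 0.355 and 0.410 in OR1 and OR2 (technical SD 0.20 on the log2 scale), and OR2 to OR1 was 1.15. Of the genes detected in all lines, 3.59% were as low or lower in OR1 and 3.77% in OR2. SDC1 is mainly an epithelial gene, and of the 6 epithelial markers described above, EPCAM, CDH1 and KRT7 had lower ratios than SDC1 in both lines and KRT19, KRT18 and KRT8 had higher ones.

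SDC2, the syndecan of mesenchymal cells, was detected on no array (NM_002998, chr8:97623978-97624037, plus strand). Its intensity was 3.0, 6.9 and 3.0 in H1975, OR1 and OR2, where the lowest intensity well above background was 11.4 to 12.6, so no ratio is given. SDC3, chiefly a neural syndecan, was up-regulated at 2.14 and 3.43 in OR1 and OR2 by its brighter probe, while a dimmer probe gave 2.25 and 1.84, under 2 in OR2 and with the resistant lines in the other order. SDC4, found at focal adhesions, had ratios of 0.554 and 0.729, and 0.367 in OR1 under spike-in scaling. The syndecans detected thus included SDC3 above H1975 and SDC1 and SDC4 below it.

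Glypicans are held at the membrane by a lipid anchor. The GPC1 probe (NM_002081, chr2:241407118-241407177, plus strand) had a scaled level of 29.8, 38.1 and 25.0 in H1975, OR1 and OR2, a ratio of 1.28 and 0.836. GPC3, known as a marker of liver cancer, had 2 probes on the minus strand of the X chromosome. The probe at chrX:132669827-132669886 (NM_001164617) had a scaled level of 0.569, 0.657 and 0.496, a ratio of 1.16 and 0.873, and the probe at chrX:132730476-132730535 was detected on none of the arrays. Neither glypican passed a ratio. The OR1 ratios of GPC1 and GPC3 turned to 0.845 and 0.765 under spike-in scaling. Of the other glypicans, GPC4 was at 1.12 and 0.390 in OR1 and OR2, GPC6 at 0.288 and 0.620, GPC2 at 0.563 and 0.795, and GPC5 was not detected. A dimmer GPC6 probe gave 0.383 and 0.498, past 0.5 in both lines, and GPC2 passed it in OR1 under spike-in scaling, at 0.372. With normexp GPC4 was at 0.649 in OR2 and no longer down-regulated, and with spike-in scaling its OR1 ratio turned to 0.742.

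GPC4 and GPC3 lie 0.675 and 0.910 Mb from HS6ST2 on the X chromosome, measured between probes on hg19. GPC4 was the low gene in OR2, with a ratio of OR2 to OR1 of 0.348, where HS6ST2 had 7.78. The 20 genes nearest to HS6ST2, all within 2.25 Mb, had a median log2 ratio of 0.19 and -0.05 in OR1 and OR2. In OR1 HS6ST2 lay below all 20 of them, the lowest being MBNL3 at -1.07, while in OR2 4 of the 20 lay above HS6ST2. The 20 genes nearest to EXT1 had a median of -0.80 and -0.66 in OR1 and OR2, and those nearest to SDC2, on the same chromosome, -0.57 and -0.61. Of the neighbours of EXT1, 8 had a lower OR1 ratio than EXT1 and 12 had a lower OR2 ratio. The part of the neighbourhood in the ratio of EXT1 was not tested. The neighbours of SDC1 had a median of -0.17 and -0.23, and all 20 lay above SDC1 in both lines. Those of NDST1 had -0.24 and -0.49, and NDST1 was exceeded by 17 of them in OR1 and by 16 in OR2.

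**Figure D2:**
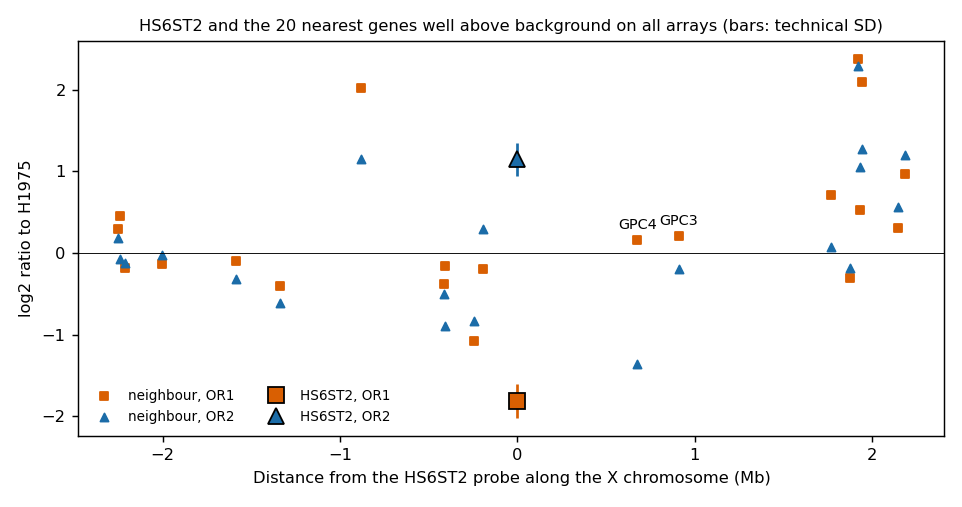
Log2 ratio to H1975 (vertical) of HS6ST2 (large symbols, bars for the technical SD) and of the 20 nearest genes detected in all lines (small symbols) against the distance in Mb from the HS6ST2 probe on the X chromosome, with squares for OR1 and triangles for OR2. The neighbours have medians of 0.19 and -0.05, and HS6ST2 lies at -1.81 and 1.15 in OR1 and OR2.

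Counted over the members with a ratio, 3 of 9 were down-regulated in OR1, namely HS6ST2, NDST1 and SDC1, beside 9.58% of all genes, and 0 were up-regulated, beside 9.17%. In OR2, 2 of 9 were down-regulated, NDST1 and SDC1, beside 8.7% of all genes, and 1 was up-regulated, HS6ST2, beside 7.72%. Between the resistant lines, HS6ST2 was the member with a ratio of OR2 to OR1 of at least 2, beside 2.48% of all genes, and 0 members were at 0.5 or below, beside 2.89%. Down-regulation in both lines was seen in NDST1 and SDC1, beside 6.7% of all genes. The remaining 6 members with a ratio passed neither ratio in either line, beside 77.1% of all genes. The median log2 ratio of the 9 members was -0.55 and -0.20 in OR1 and OR2, beside 0.04 and -0.06 over all genes. The members were chosen with these ratios known, and nothing is read from the counts about the set.

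**Figure D3:**
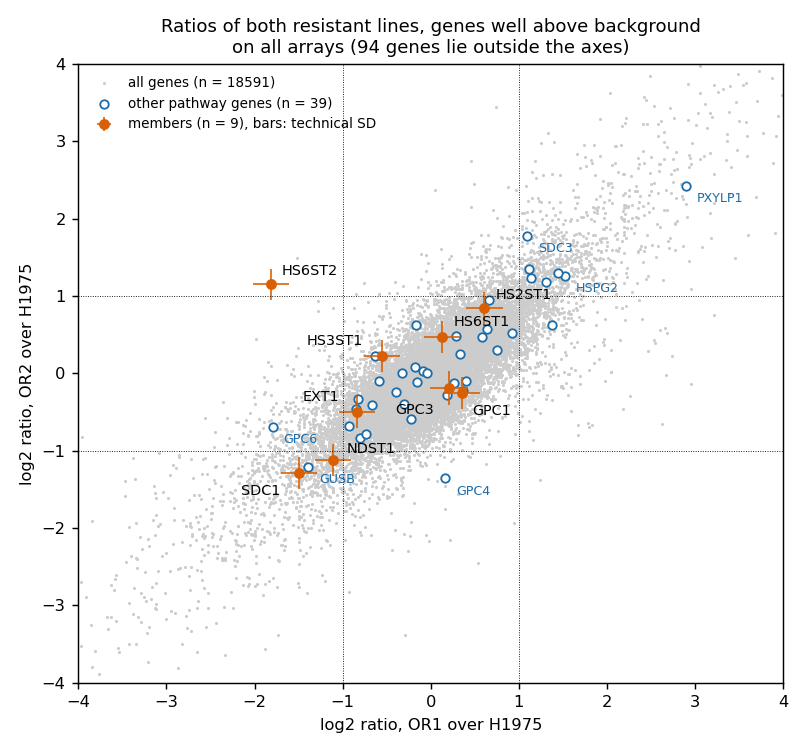
Log2 ratio to H1975 in OR1 (horizontal) against that in OR2 (vertical) for the 9 members with a ratio (filled, bars for the technical SD), 39 other pathway genes (open) and the 18591 genes detected in all lines (grey, 94 of them outside the axes), with dotted lines at the ratios of 2 and 0.5. HS6ST2 lies in the upper left at -1.81 and 1.15, and SDC1 and NDST1 lie past the lower line on both axes.

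The rest of the heparan sulfate pathway was read from lists for linkage, polymerization, modification, editing, core proteins, precursor supply and lysosomal breakdown, 64 genes on the array with the members included. Of these, 49 were detected on 1 array or more and 15 on none, beside 22418 and 20898 of all 43316 genes. In OR1, 8 were up-regulated and 6 down-regulated, and in OR2, 8 and 5, beside the shares of all genes given above. The median log2 ratio of the 49 genes was -0.05 and -0.00 in OR1 and OR2. Over all genes the medians were 0.04 and -0.06.

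Up-regulated in both lines were 7 pathway genes, none of them a member, beside 5.4% of all genes. PXYLP1, which encodes the phosphatase that removes the phosphate from the linker xylose, had a scaled level of 0.180, 1.34 and 0.967 in H1975, OR1 and OR2, a ratio of 7.47 and 5.37. A dimmer PXYLP1 probe passed 2 in neither line, at 1.83 and 1.89, and normexp took the brighter one to 2.95 and 2.30. EXTL2 and SDC3 are given above. HSPG2, encoding the matrix proteoglycan perlecan, had ratios of 2.88 and 2.39 by its brightest probe. Its dimmer probes were not detected in H1975 and gave bounds from at least 1.59 to at least 2.57 in OR1. In OR2 only the probe with the bound of 2.57 was detected, at a ratio of at least 1.70. The median over the HSPG2 probes was 2.01 in OR2. The lysosomal enzymes IDUA, SGSH and ARSG, which degrade the chain, had 2.47, 2.20 and 2.72 in OR1 and 2.26, 2.35 and 2.44 in OR2. With spike-in scaling the OR1 ratios of EXTL2, SDC3, HSPG2, IDUA, SGSH and ARSG were under 2, at 1.43, 1.41, 1.91, 1.64, 1.46 and 1.80, and all stayed above 1. With normexp, HSPG2 and SGSH stayed at 2 or above in both lines, while EXTL2 was at 1.58 and 1.76, IDUA at 1.74 and 1.62, ARSG at 1.45 and 1.31 and SDC3 at 1.55 in OR1.

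Down-regulated in both lines, beside SDC1 and NDST1, were GUSB, encoding lysosomal beta-glucuronidase, and SULF2, encoding an extracellular enzyme that removes 6-O-sulfate from finished chains. GUSB had ratios of 0.381 and 0.431. SULF2 was well above background in H1975 only, so its ratio is a bound, at most 0.492 and at most 0.370 in OR1 and OR2, and with normexp the bounds were 0.911 and 0.775. SULF1 was not detected, and HPSE, encoding heparanase, had ratios of 0.880 and 1.06 by its brighter probe and 1.67 and 3.70 by a dimmer one, so that the probes disagree, and their median was 1.21 and 1.98. The genes that write 6-O-sulfate and the gene that removes it thus had different patterns, with HS6ST1 near H1975, HS6ST2 opposite in OR1 and OR2, and SULF2 detected only in H1975.

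The 16 genes for chain modification hold 5 of the members, and 8 of the 16 were detected on no array, beside 20898 of all 43316 genes. All 10 precursor genes on the array passed neither ratio in either line, beside 77.1% of all genes. Among them PAPSS2, encoding a synthase of the sulfate donor PAPS, had ratios of 1.58 and 1.93, the latter above 2 under 4 of the alternatives, up to 2.10. Spike-in scaling took UGP2 and SLC35D2, which supply sugar nucleotides, to 0.397 and 0.441 in OR1. GLCE, encoding the epimerase, had 0.646 and 1.17 in OR1 and OR2, and spike-in scaling put its OR1 ratio at 0.428.

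**Figure D4:**
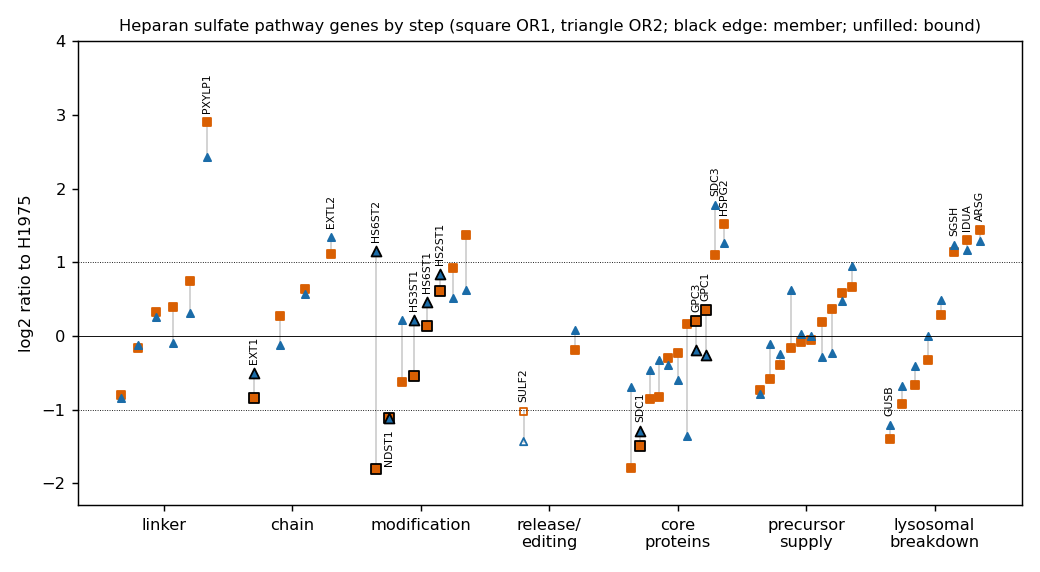
Log2 ratio to H1975 in OR1 (squares) and OR2 (triangles) of the 49 pathway genes with a ratio, grouped by step, with black edges for members, unfilled symbols for bounds, names for members and for genes past a ratio in both lines, and dotted lines at the ratios of 2 and 0.5. The 10 precursor genes lie between the dotted lines, and HS6ST2 has its symbols outside them on opposite sides.

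Chondroitin and dermatan sulfate genes, which share the linker and part of the precursor supply, served as the comparison. Of 24 on the array, 18 were detected on at least 1, beside 22418 of all 43316 genes. In OR1, 2 were up-regulated and 3 down-regulated, beside 9.17% and 9.58% of all genes, and in OR2, 2 and 4, beside 7.72% and 8.7%. The median log2 ratio was -0.13 and -0.16. CSPG4, encoding the cell-surface proteoglycan NG2, had the largest ratios at 12.6 and 17.3, and 5.85 and 8.19 with normexp. CSGALNACT1, which starts the chondroitin chain, was at most 0.0748 in OR1, where it was not detected, and 0.127 in OR2, and the normexp values were at most 0.305 and 0.334. CHST7, a chondroitin sulfotransferase gene, was at 3.996 and 3.25. No gene of this list passed the ratios in opposite directions, beside 0.0237% of all genes, and no test compared the lists.

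The order of the lines for the members past a ratio was followed over the processing alternatives. SDC1 lay between 0.235 and 0.373 in OR1 and between 0.404 and 0.459 in OR2, so it passed 0.5 under each alternative run. NDST1 lay between 0.306 and 0.478 in OR1 and between 0.454 and 0.511 in OR2. HS6ST2 lay below H1975 in OR1 and above it in OR2 under each of them.

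**Figure D5:**
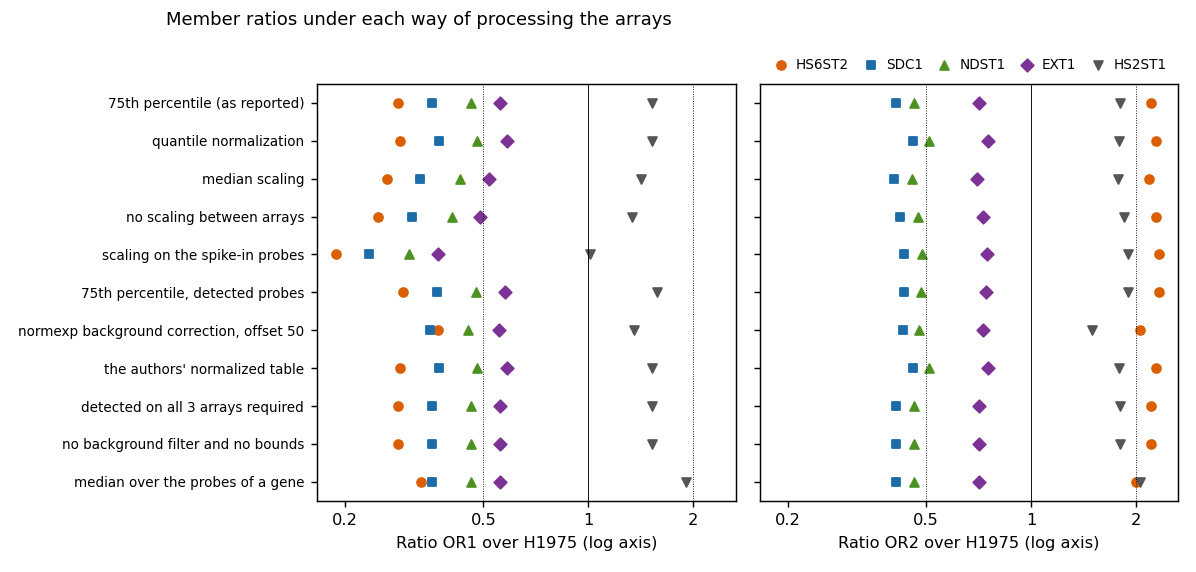
Ratio to H1975 (log axis, dotted lines at 2 and 0.5) of HS6ST2, SDC1, NDST1, EXT1 and HS2ST1 in OR1 (left) and OR2 (right), with 1 row per way of processing. HS6ST2 lies between 0.188 and 0.371 in OR1 and between 2.00 and 2.34 in OR2, with the lowest OR1 ratios under spike-in scaling.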

How the data were processed

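RNA of H1975, OR1 and OR2 was measured on 1 Agilent single-color array each. The authors deposited the scanner output, in which each spot has a processed intensity corrected for background within its array, and a normalized intensity per probe, made by a method not given in the sources used here. Feature Extraction is version 9.5.1.1 per the labels and 10.7.1.1 per the file headers. Control and outlier spots were removed, repeated spots were averaged on the log2 scale, and each array's 75th percentile was subtracted. The brightest probe stood for a gene. A side of a ratio not well above background was set to the lowest intensity called so on that array, or kept its own if higher. The ratio is then a bound. Each array was mapped to its line by its label. Coordinates of probes come from the files (hg19) and promoters from RefSeq (GRCh38.p14).

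The members and lists were chosen with earlier results of these data known. Named were all members, pathway genes past the ratio of 2 or 0.5 in both lines, paralogs of the members, the 5 genes most like HS6ST2, and up to 3 genes each of the comparison and marker lists. KRT8, KRT18, KRT19, the lung, fibroblast, leukocyte and endothelial genes, MBNL3, PAPSS2, UGP2, SLC35D2, GLCE, SULF1 and HPSE were named after their values were seen. Alternatives were other scalings (quantile, median, none, 7 spike-in probes, detected probes), normexp with an offset of 50, the authors' table, other background filters, outlier or saturated spots, the median over probes, and ratios of 4 and 1.5. The counting was tested on simulated data. Python 3.11.15, numpy 2.4.6, pandas 2.3.3, matplotlib 3.10.9, R 4.3.3 and limma 3.58.1 were used. With 1 array per line, the number of arrays limits the precision.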

Additional observations from a re-analysis of the deposited data

Results flagged for a closer look

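HS6ST2 is singled out because OR1 and OR2 moved in opposite directions from H1975, the OR1 ratio being 0.285 and the OR2 ratio 2.22. No test of this difference was made, since each has 1 array.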

How the results depend on the processing

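No direction of a called ratio turned under the 14 alternatives. Some of these could not turn one: no spot was saturated, and the ratios of 4 and 1.5 change only the cutoff. In OR1 the all-gene median, in log2 units, shifted by -0.60 under spike-in scaling, by -0.19 when arrays were left unscaled and by -0.11 under median scaling. The HS6ST2 ratio in OR1 was 0.188 under spike-in scaling, 0.371 under normexp and 0.331 as the median over probes, against 0.285. The HS6ST2 ratio of OR2 to OR1 was 12.4 with spike-in scaling, 9.12 without scaling, 5.54 with normexp and 6.03 with the median over probes, against 7.78. With that median, HS6ST2 was just under 2 in OR2 and HS2ST1, at 2.06, was the 1 member up-regulated there. Members down-regulated in OR1 were 5 with spike-in scaling and 0 at the ratio of 4, against 3. Members down-regulated in OR2 were 1 with quantile normalization, 1 with the authors' table and 0 at the ratio of 4, against 2. Members up-regulated were 1 in OR1 without the background filter, against 0. At the ratio of 1.5 they were 1 in OR1 and 2 in OR2, and at the ratio of 4 they were 0 in OR2, against 1. Pathway genes up-regulated in OR1 were 5 without scaling, 1 with spike-in scaling, 3 with normexp, 1 at the ratio of 4 and 13 at 1.5, against 8. Pathway genes down-regulated in OR1 were 10 without scaling, 16 with spike-in scaling, 0 at the ratio of 4 and 15 at 1.5, against 6. Pathway genes up-regulated in OR2 were 5 with normexp and 1 at the ratio of 4, against 8. Pathway genes down-regulated in OR2 were 3 with normexp, 0 at the ratio of 4 and 10 at 1.5, against 5. Of the other 1730 values, 1568 stayed within their spread or, for counts, within 1.5 times, and 162 moved, 72 of them with spike-in scaling and 43 with normexp. A stricter or looser ratio changes a count by construction. Spike-in scaling, median scaling and no scaling multiply all ratios of a line by the same factor. Changes of single genes under these are therefore not separate results. For the other alternatives the cause was not tested. No paired analysis was possible because each line has 1 array and no test was made, and the slide could not be fitted as a block because all 3 arrays share it. Signal over background limits SULF2 to a bound and leaves SDC2 with no ratio.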
